A study of Homo sapiens with 9 samples.

Results

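YAP1 and WWTR1, the genes of the transcriptional coactivators YAP and TAZ, were followed together with 2 of the TEAD DNA-binding partners, TEAD1 and TEAD4, and 6 widely used target genes, CCN1, CCN2, ANKRD1, AMOTL2, LATS2 and AXL. The 10 genes were taken by symbol from the 60683 genes counted, and all 10 were among the 22672 genes with a summed count of at least 10 that were tested. The counts came from RNA-seq of Hep3B cells, an established human liver cancer line, in 9 cultures with 3 biological replicates per group. The groups were vehicle (DMSO) at 20% O2, vehicle at 1% O2 and the HIF inhibitor 32-134D at 1% O2, all collected after 24 hours. The sample labels give DMEM/F12 medium with fetal bovine serum, whereas the study's methods give high-glucose DMEM with that serum. No library from cells given 32-134D at 20% O2 was analysed here, and the sample labels give no dose of the compound. All 3 groups are this 1 line, and the labels name no genetic change in any of them. Total counts ran from 6013980 to 40549699 per library. Replicate 3 of 32-134D stood apart from the other libraries of its group, and the members' fold changes with the compound that it moves most are given with and without it.

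In the Hippo pathway, a chain of kinases ends with LATS1 and LATS2, which phosphorylate YAP and TAZ so that they stay in the cytoplasm or are degraded. When the kinases are inactive, YAP and TAZ enter the nucleus, bind TEAD proteins and raise the transcription of genes for matrix signalling, growth and feedback. In liver the pathway is known for setting organ size, and active YAP promotes growth of hepatocytes and of liver tumours. Hypoxia acts on transcription mainly through the HIF factors, which 32-134D was made to inhibit. RNA counts show neither the phosphorylation nor the location of YAP and TAZ.

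The 10 genes are protein-coding and lie at the following places in GRCh38, as annotated in GENCODE version 29. The coactivators were YAP1 (ENSG00000137693) on chromosome 11 from 102110461 to 102233423, and WWTR1 (ENSG00000018408) on chromosome 3 from 149517235 to 149736714. The TEAD genes were TEAD1 (ENSG00000187079) on chromosome 11 from 12674591 to 12944483, and TEAD4 (ENSG00000197905) on chromosome 12 from 2959330 to 3040673. The CCN genes, listed under their older symbols CYR61 and CTGF in that annotation, were CCN1 (ENSG00000142871) on chromosome 1 from 85580761 to 85583962, and CCN2 (ENSG00000118523) on chromosome 6 from 131948176 to 131951373. The remaining targets were ANKRD1 (ENSG00000148677) on chromosome 10 from 90912096 to 90921276, AMOTL2 (ENSG00000114019) on chromosome 3 from 134355874 to 134375479, LATS2 (ENSG00000150457) on chromosome 13 from 20973032 to 21061547, and AXL (ENSG00000167601) on chromosome 19 from 41219203 to 41261766. Antisense genes share exon positions with YAP1, WWTR1, CCN2 and AXL, and a pseudogene shares 187 bases with AMOTL2. The strand setting of the counting is not given in the sources used here. The summed counts of these 5 overlapping genes over the 9 libraries ran from 1 to 87, whereas YAP1 alone had 21360.

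TEAD proteins bind the letters CATTCC, read GGAATG on the other strand, and these were looked for in the 250 bases before each RefSeq start site. Start sites were listed for 7 of the 10 genes, in 10 windows, and those of TEAD1, TEAD4 and CCN1 were not analysed here. Of those 7 genes, 5 had the motif in at least 1 window, and LATS2 and WWTR1 had none. Some of these genes had more than 1 window, so this count per gene is not directly comparable with a share of windows. Over 35116 windows of the same length, 11.9% held the motif at least once, 0.94% held it 2 or more times and 0.0826% held it 3 or more times. The CCN2 window had 3 copies, starting 169, 104 and 95 bases before the start site, and is shown because it is the densest of the 10 windows. The YAP1 window is shown because the coactivator gene itself holds a copy, 162 bases before its start. The coordinates on GRCh38.p14 are chr6:131951373-131951622 on the minus strand for CCN2 and chr11:102110197-102110446 on the plus strand for YAP1, and capitals mark the motif.
CCN2: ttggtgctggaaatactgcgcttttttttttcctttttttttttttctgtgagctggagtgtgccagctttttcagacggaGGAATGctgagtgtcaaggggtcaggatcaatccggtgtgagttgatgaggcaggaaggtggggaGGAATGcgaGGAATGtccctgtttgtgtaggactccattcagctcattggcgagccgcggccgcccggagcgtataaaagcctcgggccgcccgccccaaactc
YAP1: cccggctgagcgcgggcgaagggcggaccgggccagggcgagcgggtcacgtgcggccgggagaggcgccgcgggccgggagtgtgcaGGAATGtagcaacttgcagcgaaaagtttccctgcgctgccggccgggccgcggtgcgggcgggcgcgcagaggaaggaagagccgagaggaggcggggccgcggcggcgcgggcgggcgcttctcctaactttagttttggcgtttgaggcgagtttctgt

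For ANKRD1, AMOTL2 and AXL, 30 bases around the motif are shown, to compare the letters beside it. ANKRD1 had 2 copies, starting 220 and 128 bases before its start site, in chr10:90921290-90921319 and chr10:90921198-90921227 on the minus strand. AMOTL2 had 1 copy in 1 of its 2 windows, in chr3:134374499-134374528 on the minus strand. AXL also had 1 copy in 1 of its 2 windows, in chr19:41226531-41226560 on the plus strand. For AMOTL2 and AXL, the window with the copy lies inside the annotated gene. Their windows at the annotated gene start, chr3:134375418-134375667 and chr19:41218973-41219222, had none. The near copy of ANKRD1 also lies inside its annotated gene, and the far copy lies before the gene start. A match to these letters is a description of the sequence and not evidence of binding.
ANKRD1 far copy: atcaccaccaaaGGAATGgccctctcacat
ANKRD1 near copy: gacactgagtctGGAATGaaaattcacctg
AMOTL2: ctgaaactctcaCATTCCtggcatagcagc
AXL: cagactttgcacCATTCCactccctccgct

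The core letters of the HIF response element, ACGTG and its reverse CACGT, were found in 18.5% of all windows, and the variant GCGTG with its reverse CACGC in 32.2%. YAP1 held ACGTG and CACGT as an overlapping pair starting 202 and 203 bases before its start, LATS2 held CACGT 5 bases before its start, and AXL held CACGT in the window that also holds its TEAD motif. AXL and WWTR1 held CACGC. The CCN2, ANKRD1 and AMOTL2 windows held none of these letters.

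The 10 genes did not move one way in hypoxia. In vehicle at 1% O2 against vehicle at 20% O2, YAP1, TEAD1 and CCN2 fell, CCN1, ANKRD1 and AMOTL2 rose, and WWTR1, TEAD4, LATS2 and AXL were not called. A call needed a Benjamini-Hochberg FDR below 0.05 from the edgeR quasi-likelihood test and a fold change above 1.5. Calls in each direction were common in this comparison, with 19.5% of all tested genes higher and 20.3% lower, and the 3 members higher and 3 lower of 10 are read against that. Without replicate 3 of 32-134D, which is in neither vehicle group but enters the shared estimate of the spread, 5 members were called higher, LATS2 and AXL in addition. In bulk RNA, fewer cells of a type and less RNA per cell cannot be told apart. The libraries of the 2 vehicle groups did not overlap for any of the 10 members, which was also so for 60.5% of all tested genes.

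With 32-134D at 1% O2 against vehicle at 1% O2, YAP1 and TEAD1 rose and CCN1, ANKRD1, AMOTL2 and LATS2 fell. WWTR1, TEAD4, CCN2 and AXL were not called. Among all tested genes 16.2% were called higher and 13.7% lower. The libraries did not overlap for 7 of the 10 members, against 56.1% of all tested genes. Against vehicle at 20% O2, 0 members were called with 32-134D by edgeR, where 3.0% of all tested genes were called higher and 0.516% lower. Of the 10, 4 had an unadjusted p under 0.05, and DESeq2 called 1 of them, AXL, higher. The share of all tested genes meeting either criterion was not computed, so these counts are not read as a result about the members. Leaving out single libraries changed the count called by edgeR. With that test, 1 member was higher without replicate 1 of vehicle at 20% O2 (CCN1) or without replicate 1 or 2 of 32-134D (AXL). In the other direction, 1 was lower without replicate 1 of 32-134D (CCN2). Groups did not overlap for 6 of the 10 members there, against 29.8% of all tested genes, and CCN1 had an FDR below 0.05 with a fold under the threshold. The comparisons share libraries, so their fold changes are given side by side and not as independent evidence. The median log2 fold change of the 10 genes was 0.40 in hypoxia, 0.05 with 32-134D and -0.05 for 32-134D against vehicle at 20% O2, and over all tested genes it lay within 0.02 of 0 in each comparison.

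**Figure D1:**
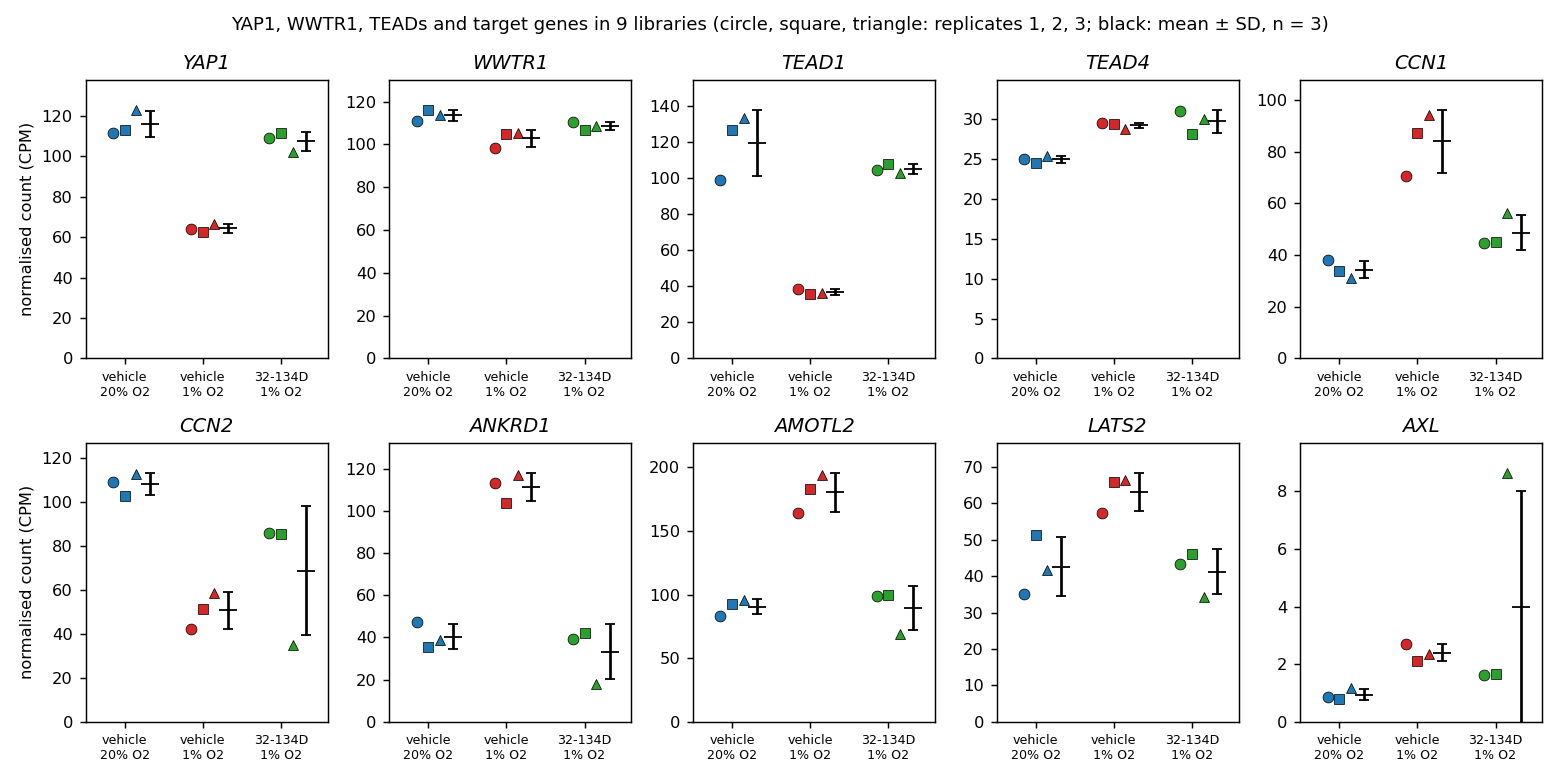
Normalised count in CPM (vertical axes, from 0, scaled separately for each gene) of the 10 genes in vehicle at 20% O2, vehicle at 1% O2 and 32-134D at 1% O2, with a point for each replicate and a bar for the mean ± SD (n = 3). YAP1, TEAD1 and CCN2 are lower and CCN1, ANKRD1 and AMOTL2 higher in vehicle at 1% O2, and replicate 3 of 32-134D (triangle) lies apart for CCN2, ANKRD1, AMOTL2 and AXL, where the AXL bar is cut at 0.

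YAP1, which encodes the coactivator YAP, was lower in hypoxia and returned close to its normoxic level with 32-134D. In CPM, library-scaled counts after TMM normalisation that are given for replicates 1, 2 and 3 in that order throughout, vehicle at 20% O2 had 112, 113 and 123. The counts were 63.8, 62.4 and 66.6 in vehicle at 1% O2 and 109, 111 and 102 with 32-134D. The hypoxic vehicle libraries lay below all 6 others. The log2 fold change was -0.85 (SE 0.07, FDR 1.21e-07) in hypoxia and 0.74 (SE 0.07, FDR 8.92e-07) with 32-134D against vehicle at 1% O2, both from edgeR. Between 32-134D and vehicle at 20% O2 the difference was -0.11 (95% interval -0.26 to 0.04, FDR 0.36).

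WWTR1, which encodes TAZ, the paralogue of YAP, varied little over the 9 libraries. Its normalised counts were 111, 116 and 114 CPM in vehicle at 20% O2, 98.3, 105 and 105 CPM in vehicle at 1% O2 and 110.3, 107 and 108 CPM with 32-134D. The hypoxic vehicle libraries were the lowest 3, by a small margin. The edgeR log2 fold change was -0.14 (95% interval -0.28 to -0.00, FDR 0.0777) in hypoxia and 0.08 (95% interval -0.06 to 0.22, FDR 0.349) with 32-134D, so changes beyond 1.5-fold lay outside both intervals. For 32-134D against vehicle at 20% O2 it was -0.07 (95% interval -0.21 to 0.07, FDR 0.6).

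The balance of the 2 coactivator transcripts was compared as a ratio. Per kilobase of merged exons, the ratio of WWTR1 to YAP1 was 0.734 ± 0.0393 (SD, n = 3) in vehicle at 20% O2, 1.20 ± 0.0531 in vehicle at 1% O2 and 0.757 ± 0.0399 with 32-134D. YAP1 was the more abundant transcript per kilobase in every library of the first and last groups, and WWTR1 was in every library of vehicle at 1% O2. In raw counts, without that length, the ratio was 0.993, 1.03 and 0.923 in vehicle at 20% O2. It was 1.54, 1.68 and 1.58 in vehicle at 1% O2 and 1.01, 0.957 and 1.06 with 32-134D. Which gene led in the first and last groups thus depends on the exon length used. The ratio was 1.63-fold higher in vehicle at 1% than at 20% O2 without overlap, with an exact two-sided permutation p of 0.1, the smallest that 3 against 3 libraries allow (0.129 adjusted over the 9 ratio tests run). The ratio with 32-134D overlapped that of vehicle at 20% O2 (fold 1.03, exact permutation p = 0.6, adjusted 0.6).

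TEAD1, a DNA-binding partner through which YAP and TAZ reach their targets, had the largest decrease in hypoxia among the members. Its normalised counts were 99.0, 127 and 134 CPM in vehicle at 20% O2, 38.7, 35.7 and 36.2 CPM in vehicle at 1% O2 and 105, 108 and 103 CPM with 32-134D. Every hypoxic vehicle library was below every other library, and the 32-134D libraries lay within the range of vehicle at 20% O2. By edgeR the log2 fold change was -1.70 (SE 0.10, FDR 2.98e-09) in hypoxia, 1.51 (SE 0.10, FDR 2.43e-08) with 32-134D and -0.19 (95% interval -0.39 to 0.02, FDR 0.251) for 32-134D against vehicle at 20% O2.

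TEAD4, which encodes another TEAD factor, had lower counts and moved less. Its normalised counts were 25.03, 24.5 and 25.4 CPM in vehicle at 20% O2, 29.5, 29.4 and 28.8 CPM in vehicle at 1% O2 and 31.1, 28.2 and 30 CPM with 32-134D. Both groups at 1% O2 were above vehicle at 20% O2 and overlapped each other. In hypoxia the edgeR log2 fold change was 0.22 (SE 0.08, FDR 0.0317), a 1.17-fold difference that did not reach the fold threshold. This small rise depended on the scaling, at 0.18 (FDR 0.105) with DESeq2 and 0.01 (FDR 0.929) in edgeR with total library size. With 32-134D against vehicle at 1% O2 the main edgeR estimate was 0.03 (95% interval -0.14 to 0.19, FDR 0.815). Against vehicle at 20% O2 that estimate was 0.25 (95% interval 0.07 to 0.43, FDR 0.0689).

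Per kilobase of exons, TEAD1 and TEAD4 were about level in vehicle at 20% O2, with a ratio of TEAD1 to TEAD4 of 1.06 ± 0.163 (SD, n = 3). In raw counts the ratio in that group was 3.95, 5.18 and 5.27, so their being level depends on the exon length used. Per kilobase, the ratio was 0.279 ± 0.0109 in vehicle at 1% O2 and 0.784 ± 0.0563 with 32-134D. None of the 3 groups overlapped another, and each comparison gave an exact permutation p of 0.1, the smallest possible (adjusted 0.129). The ratio fell to 0.265 of its normoxic value in hypoxia, and with 32-134D it was 0.744 of that value.

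**Figure D2:**
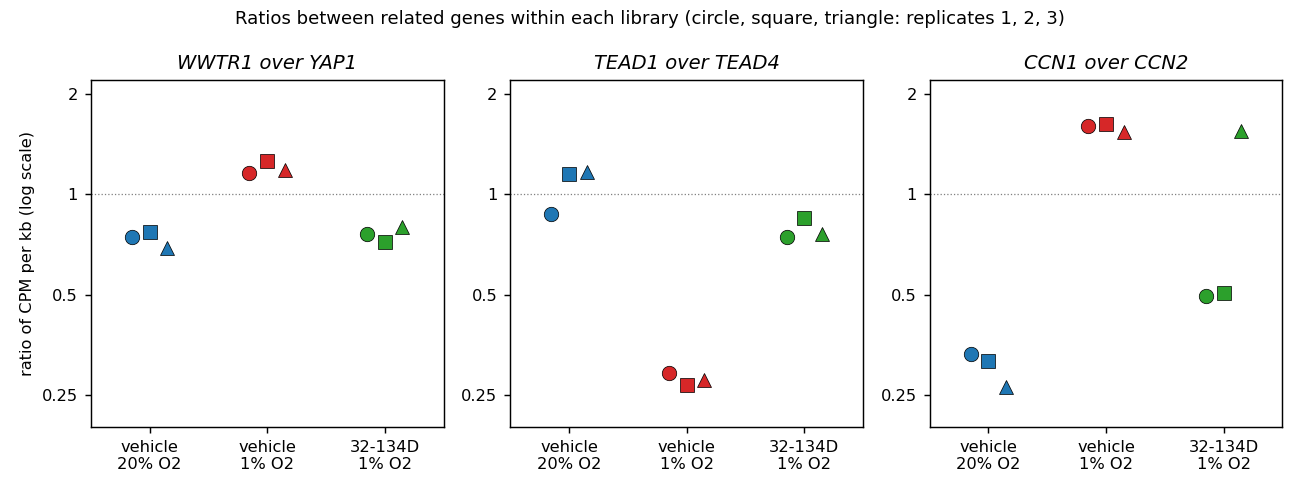
Ratios of normalised counts per kilobase of merged exons (vertical axis, log2 scale) for WWTR1 over YAP1, TEAD1 over TEAD4 and CCN1 over CCN2, with a point for each library of the 3 groups. The ratio of WWTR1 to YAP1 is above 1 in vehicle at 1% O2 alone, TEAD1 to TEAD4 is lowest there at 0.279, and CCN1 to CCN2 is highest there at 1.59 except for replicate 3 of 32-134D at 1.55.

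CCN1 and CCN2 encode related matricellular proteins, secreted signals that bind integrins, and are often read together as the standard output of YAP and TAZ. Here they moved in opposite directions. CCN1 was at 37.9, 33.9 and 31.2 CPM in vehicle at 20% O2, 70.4, 87.5 and 94.3 CPM in vehicle at 1% O2 and 44.5, 45.2 and 56.5 CPM with 32-134D. The 3 groups did not overlap, and the 32-134D libraries lay between the vehicle groups. The edgeR log2 fold change of CCN1 was 1.29 (SE 0.12, FDR 4.74e-07) in hypoxia, -0.79 (SE 0.12, FDR 6.36e-05) with 32-134D and 0.51 (SE 0.12, FDR 0.0177) for 32-134D against vehicle at 20% O2, the last a 1.42-fold difference. Without replicate 3 of 32-134D, the second of these was -0.90 (FDR 7.43e-09).

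CCN2 was at 109, 103 and 112 CPM in vehicle at 20% O2, 42.0, 51.3 and 58.6 CPM in vehicle at 1% O2 and 85.9, 85.4 and 34.8 CPM with 32-134D. Vehicle at 1% O2 was below vehicle at 20% O2 in every library, whereas the 32-134D group was split, with replicates 1 and 2 above and replicate 3 below all hypoxic vehicle libraries. In hypoxia the log2 fold change from edgeR was -1.10 (SE 0.24, FDR 0.00122). With 32-134D it was 0.45 (95% interval -0.06 to 0.95, FDR 0.137) over the 3 libraries, and 0.76 (FDR 4.89e-08) without replicate 3, when CCN2 was called higher. Against vehicle at 20% O2 it was -0.65 (95% interval -1.16 to -0.14, FDR 0.101), and -0.34 (FDR 0.0138) without that library.

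The ratio of CCN1 to CCN2 per kilobase was 0.304 ± 0.0349 (SD, n = 3) in vehicle at 20% O2 and 1.59 ± 0.0476 in vehicle at 1% O2, so that the more abundant of the pair changed. The fold of 5.24 had an exact permutation p of 0.1, the smallest possible (adjusted 0.129). With 32-134D the ratio was 0.494, 0.505 and 1.55 in replicates 1, 2 and 3. Its range overlapped that of vehicle at 1% O2 through replicate 3 (exact permutation p = 0.2, adjusted 0.225). Against vehicle at 20% O2 the ratio was 2.41-fold higher without overlap (exact permutation p = 0.1, the smallest possible, adjusted 0.129).

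ANKRD1, an ankyrin repeat protein of the nucleus and the muscle sarcomere, had the largest increase in hypoxia among the members called. It was at 47.2, 35.3 and 38.6 CPM in vehicle at 20% O2, 113, 104 and 117 CPM in vehicle at 1% O2 and 39.1, 42.0 and 18.1 CPM with 32-134D. Each hypoxic vehicle library was above 100 CPM and no other library reached 50. The edgeR log2 fold change was 1.45 (SE 0.22, FDR 4.03e-05) in hypoxia and -1.74 (SE 0.21, FDR 9.49e-06) with 32-134D. Without replicate 3 of 32-134D, the lowest library, the latter was -1.46 (FDR 9.44e-14). Against vehicle at 20% O2 the 32-134D group differed by -0.29 (95% interval -0.75 to 0.18, FDR 0.466).

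AMOTL2, an angiomotin family protein that binds and holds back YAP, and LATS2, the kinase that phosphorylates it, are targets that act as negative feedback. AMOTL2 was at 83.5, 92.8 and 95.3 CPM in vehicle at 20% O2, 164, 183 and 194 CPM in vehicle at 1% O2 and 99.1, 100.02 and 69.2 CPM with 32-134D. The hypoxic vehicle libraries were above all others. Its log2 fold change from edgeR was 0.99 (SE 0.12, FDR 5.62e-06) in hypoxia, -1.01 (SE 0.12, FDR 6.85e-06) with 32-134D and -0.02 (95% interval -0.28 to 0.24, FDR 0.962) for 32-134D against vehicle at 20% O2. Without replicate 3 of 32-134D, its fold change with the compound was -0.86 (FDR 3.2e-10).

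LATS2 was at 35.0, 51.2 and 41.8 CPM in vehicle at 20% O2, 57.3, 66.0 and 66.4 CPM in vehicle at 1% O2 and 43.5, 46.0 and 34.2 CPM with 32-134D. It was highest in vehicle at 1% O2 without overlap, by a smaller margin than AMOTL2. In hypoxia the edgeR log2 fold change was 0.58 (SE 0.13, FDR 0.00156), a fold of 1.498 that lay just under the threshold of 1.5, so LATS2 was not called. With 32-134D it was -0.61 (SE 0.13, FDR 0.00104) and was called, but it was -0.50 (FDR 0.000102) and under the fold threshold without replicate 3. The 32-134D and normoxic groups overlapped, with a difference of -0.03 (95% interval -0.31 to 0.25, FDR 0.931). Whether LATS2 is called thus depends on where the fold threshold is set in both comparisons.

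AXL, a receptor tyrosine kinase of the TAM family, was near the limit of measurement. Its raw counts were 12, 5 and 38 in vehicle at 20% O2, 102, 45 and 68 in vehicle at 1% O2 and 57, 49 and 189 with 32-134D. In CPM these were 0.861, 0.785 and 1.16, then 2.70, 2.12 and 2.35, then 1.62, 1.65 and 8.64. The 2 vehicle groups did not overlap, and replicate 3 of 32-134D was over 3 times as high as any other library. Fitted by edgeR, the log2 fold change was 1.26 (95% interval -0.05 to 2.57, FDR 0.0964) in hypoxia, 0.66 (95% interval -0.38 to 1.70, FDR 0.29) with 32-134D and 1.92 (95% interval 0.65 to 3.20, FDR 0.0554) for 32-134D against vehicle at 20% O2. Without replicate 3 of 32-134D it was 1.24 (FDR 4.41e-05) in hypoxia and called, and -0.57 (FDR 0.0263) with 32-134D, of the opposite sign and under the fold threshold. The comparison with vehicle at 20% O2 then gave 0.68 (FDR 0.104).

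**Figure D3:**
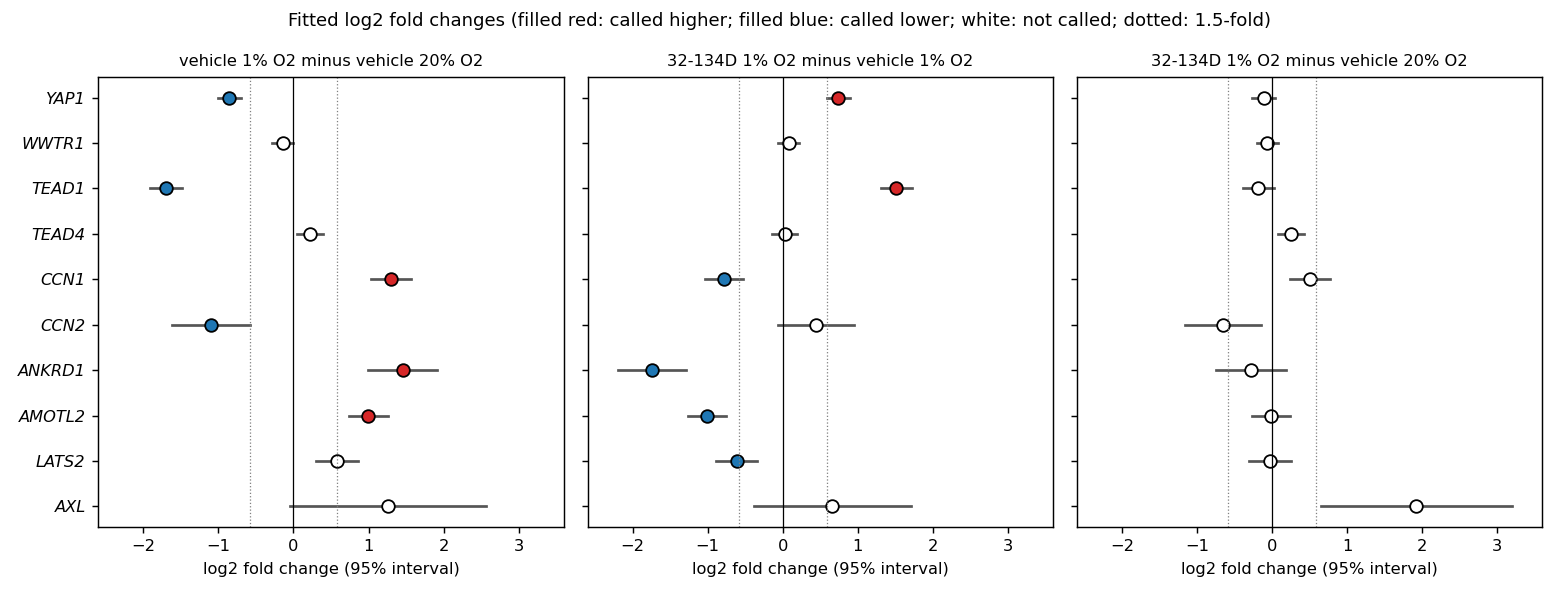
Log2 fold change (horizontal axes) of each of the 10 genes in the 3 comparisons, as edgeR estimates with 95% intervals (n = 3 libraries per group). TEAD1 at -1.70 and ANKRD1 at 1.45 mark the ends of the range of called genes in hypoxia, TEAD1 at 1.51 and ANKRD1 at -1.74 do so with 32-134D in the reverse order, and AXL has the widest intervals.

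Within the 10 members, replicate 3 of 32-134D differed from replicates 1 and 2 more for the targets than for the coactivators or TEADs. On the log2 CPM scale with a prior count of 2, its difference from the mean of replicates 1 and 2 was -1.30 for CCN2, -1.16 for ANKRD1, -0.52 for AMOTL2, -0.39 for LATS2, 0.33 for CCN1 and 2.35 for AXL. For YAP1, WWTR1, TEAD1 and TEAD4 it ran from -0.11 to 0.02. Replicates 1 and 2 lay within 0.14 of each other for all 10 genes. Among 11141 genes with a mean of at least 5 CPM, 2.59% were more than 2-fold from the mean of the other libraries in replicate 3, and CCN2 and ANKRD1 were among them. The share of all genes at smaller differences was not computed. Targets outside the members varied in replicate 3, with GADD45A at 0.99, PTPN14 at 0.62 and MYOF at 5.38 times the mean of replicates 1 and 2. Those genes were picked after their values were seen. All 8 hepatocyte markers were lower in this library, from 0.206 of the mean of replicates 1 and 2 for FGB to 0.804 for SERPINA1. Their part in the results was not tested.

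**Figure D4:**
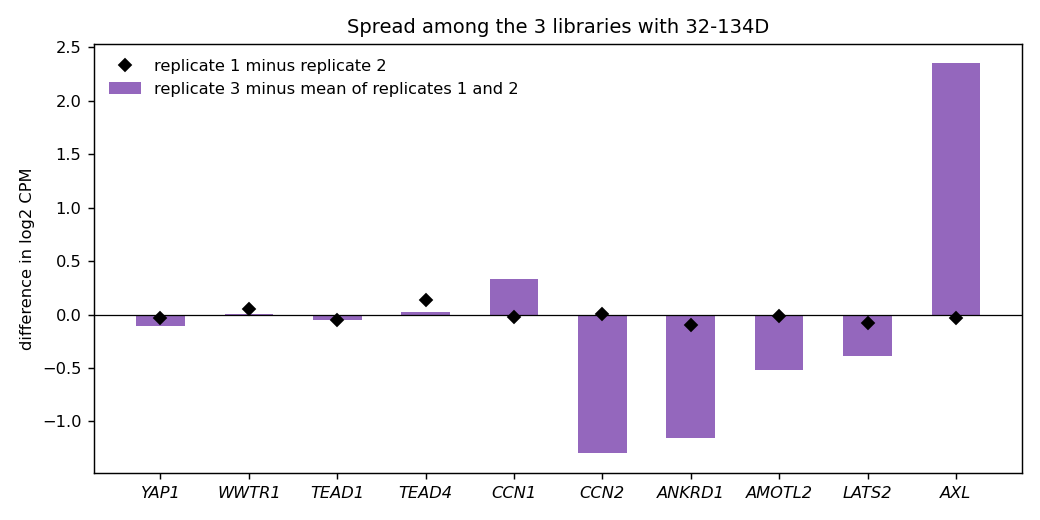
Difference in log2 CPM (vertical axis) between replicate 3 of 32-134D and the mean of replicates 1 and 2, and between replicates 1 and 2, for the 10 genes. Replicate 3 lies at -1.30 for CCN2, -1.16 for ANKRD1 and 2.35 for AXL, while replicates 1 and 2 stay within 0.14 of each other.

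The order of levels, in CPM per kilobase of merged exons, changed with oxygen. In vehicle at 20% O2, CCN2 was the most abundant transcript at 46.2, followed by ANKRD1 at 20.4 and YAP1 at 18.4, which overlapped each other. AMOTL2, CCN1 and WWTR1 came next, from 15.1 to 13.5, each overlapping its neighbour, then TEAD1 and TEAD4, which also overlapped. LATS2 was at 7.65 and AXL last at 0.181.

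In vehicle at 1% O2 the order was led by ANKRD1 at 56.2, with CCN1 at 34.2 and AMOTL2 at 30.2 overlapping below it and CCN2 at 21.6. TEAD4 followed at 12.9, and WWTR1, LATS2 and YAP1, from 12.2 to 10.2, overlapped their neighbours in that order. TEAD1 was ninth at 3.59 and AXL last at 0.464. With 32-134D, CCN2 at 29.4 and CCN1 at 19.9 led and overlapped. YAP1, ANKRD1, AMOTL2, TEAD4 and WWTR1, from 17.1 to 12.9, each overlapped the next. TEAD1 was at 10.2, LATS2 at 7.39 and AXL at 0.770. Without replicate 3 the 32-134D order was CCN2 at 36.6, ANKRD1 at 20.5, CCN1 at 18.3, YAP1 at 17.5 and AMOTL2 at 16.6, none overlapping the next, and AXL was at 0.317.

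Other genes of the pathway were counted in lists written from general knowledge. Calls in this and the following lists are read against the shares of all tested genes. These were 19.5% higher and 20.3% lower in hypoxia, and 16.2% higher and 13.7% lower with 32-134D against vehicle at 1% O2. Among 16 genes of the Hippo kinase module and its upstream regulators, 2 rose and 2 fell in hypoxia. SAV1, the scaffold that joins the upstream kinases, rose by a log2 fold change of 1.73 (SE 0.11, FDR 8.52e-09) and LATS1, the paralogue of LATS2, by 0.89 (SE 0.10, FDR 1.67e-06) in edgeR. MAP4K4, a kinase that can activate LATS, had -1.34 (SE 0.10, FDR 3.36e-08) and WWC1, the scaffold also named KIBRA, had -1.08 (SE 0.10, FDR 2.74e-07). With 32-134D, MAP4K4 (1.02) and WWC1 (0.70) rose, SAV1 (-1.14) fell and 13 were not called. The median of the list was -0.12 in hypoxia and 0.07 with 32-134D.

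Of 6 further TEAD partners, 4 were tested, and TEAD2 alone was called, with -0.68 (SE 0.09, FDR 1.73e-05) in hypoxia by edgeR. With 32-134D edgeR called 0 of the 4, of which 3 had an unadjusted p under 0.05, and DESeq2 called 2 higher. For the last 2 counts the share of all tested genes was not computed. The list's median was -0.33 in hypoxia and 0.39 with 32-134D.

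Among 6 ubiquitin ligases that act on YAP, TAZ or LATS, SIAH2 and SIAH1 rose in hypoxia and NEDD4 fell. SIAH2, which can target LATS2 for degradation in hypoxia, had an edgeR log2 fold change of 2.66 (SE 0.08, FDR 5.3e-12) in hypoxia, -1.48 (SE 0.07, FDR 2.48e-09) with 32-134D and 1.18 (SE 0.08, FDR 3.46e-07) for 32-134D against vehicle at 20% O2. SIAH1 had 1.19 and -0.81 in the first and second comparisons, and NEDD4 had -0.71 and 0.68, all called. The other 3 ligases were not called in either. The median of the 6 was 0.50 in hypoxia and -0.33 with 32-134D.

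The 16 other genes of a common YAP and TAZ target signature gave 2 higher and 6 lower in hypoxia, with a median log2 fold change of -0.61. With 32-134D they gave 7 higher and 2 lower, with a median of 0.62. Among all tested genes, 19.5% were called higher and 20.3% lower in hypoxia, and 16.2% and 13.7% with 32-134D. Without replicate 3 of 32-134D, 6 were higher and 2 lower with the compound. NT5E, which makes extracellular adenosine, had -2.27 (SE 0.13, FDR 2.23e-09) in hypoxia and 1.96 (SE 0.13, FDR 2.32e-08) with 32-134D in edgeR. TGFB2, a TGF-beta ligand, had -2.02 (SE 0.33, FDR 0.000103) and 2.43 (SE 0.32, FDR 1.97e-05), and DOCK5, an activator of Rac, had -1.86 (SE 0.12, FDR 1.05e-08) in hypoxia. GADD45A, a stress gene, moved the opposite way, with 3.43 (SE 0.13, FDR 4.78e-11) in hypoxia and -1.80 (SE 0.12, FDR 2.26e-08) with 32-134D. The list thus had more lower than higher calls in hypoxia, while the 6 member targets had 3 higher and 1 lower. That difference was not tested.

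In the same list MYOF, a membrane repair protein, was called higher with 32-134D, at 1.76 (SE 0.48, FDR 0.00702) in edgeR, but its level in replicate 3 was 5.38 times the mean of replicates 1 and 2 and without that library it was at 0.48 (FDR 0.000226), under the fold threshold. Without it TGFB2 was still called, at 1.82 (FDR 2.81e-12). FOXF2, named after its values were seen, was the second gene called higher in hypoxia and had 0 counts in every library of vehicle at 20% O2. Against a floor of 3 counts per library it was at least 2.42-fold higher in hypoxia. With FOXF2 at that bound the median of the list stayed at -0.61 in hypoxia.

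Against vehicle at 20% O2, edgeR called 5 genes of these pathway lists and of the relatives of the targets with 32-134D, all higher, namely SAV1 (0.59), SIAH2 (1.18), GADD45A (1.64), MYOF (2.12) and ANKRD37 (2.22) on the log2 scale. The lists held 16 kinase module genes, 4 TEAD partners, 6 ligases, 16 other targets and 8 relatives that were tested. Among all tested genes 3.0% were called higher and 0.516% lower, so that 85.3% of all calls in this comparison were higher. SAV1 was not called without replicate 3 of 32-134D or without replicate 2 of vehicle at 20% O2, and MYOF was at 0.83 (FDR 3.55e-06) without replicate 3.

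**Figure D5:**
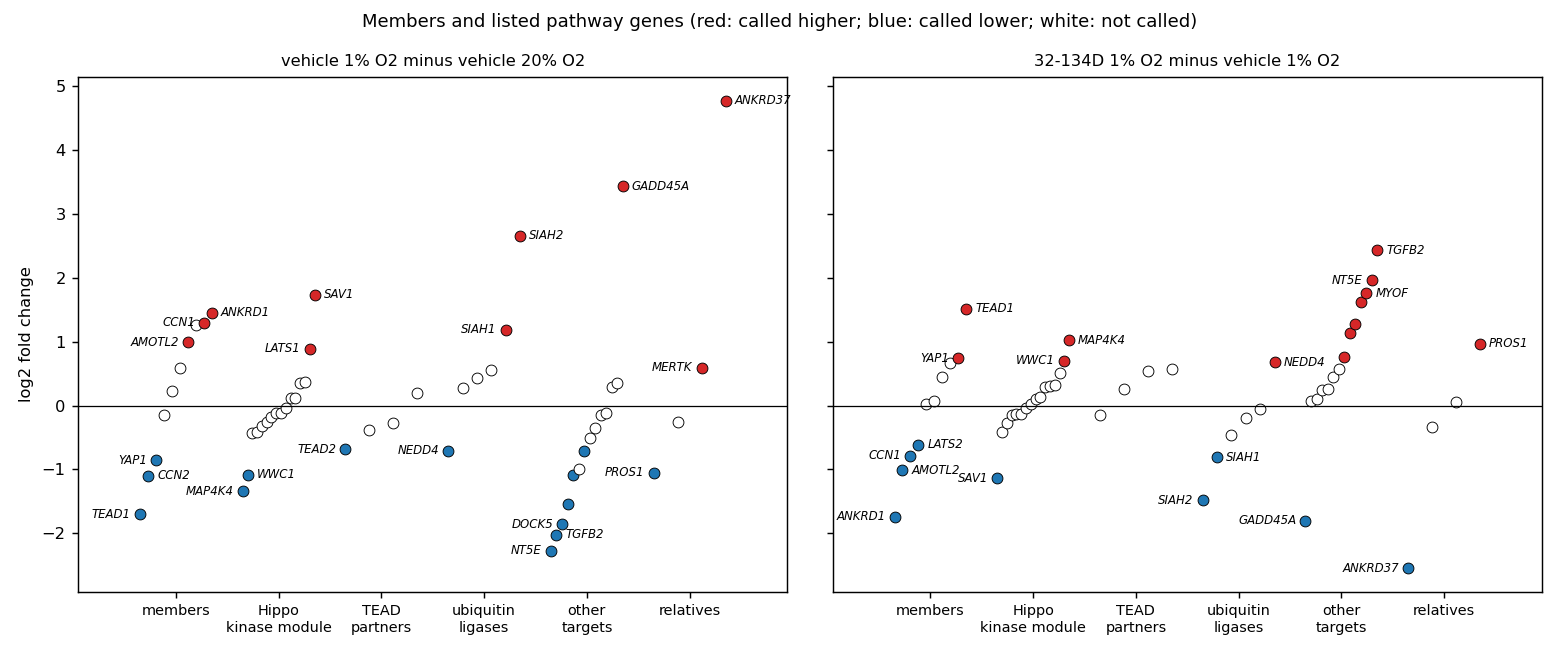
Log2 fold change (vertical axis) of the 10 genes and of the listed pathway genes, grouped by list and sorted within it, in hypoxia (left) and with 32-134D at 1% O2 (right). Filled points were called higher or lower and open points were not, and genes whose mean was under 1 CPM in every group are left out. SIAH2, GADD45A and ANKRD37 are highest in their lists in hypoxia and lowest in them with 32-134D.

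Cell identity was checked on marker genes. The 8 hepatocyte markers summed to 17980 to 19370 CPM in vehicle at 20% O2, 13060 to 16400 CPM in vehicle at 1% O2 and 11360 to 17740 CPM with 32-134D, with none at 0. The 2 vehicle groups did not overlap in this sum, which APOB, named after its values were seen, moved most, with edgeR log2 fold changes of -3.47 (SE 0.18, FDR 7.6e-10) in hypoxia and 3.12 (SE 0.17, FDR 5.98e-09) with 32-134D. The 4 endothelial markers summed to at most 1.28 CPM and the 4 leukocyte markers to at most 0.932 CPM, with VWF, KDR and CD3E at 0 counts throughout. The 4 fibroblast markers summed to 35.2 to 38.0 CPM in vehicle at 20% O2 and 34.5 to 43.0 CPM with 32-134D. In vehicle at 1% O2 their sum was lower, at 16.8 to 18.1 CPM. PDGFRB made up most of the sum at 27.2 and 10.1 CPM in the 2 vehicle groups, LUM was higher at 1% O2, at 2.43 and 3.76 CPM without overlap though not called, and DCN, a defining fibroblast marker, had 4 counts in all. The part of the hepatocyte and fibroblast markers in the results was not tested. The 7 HIF target genes used as a check of the labels all rose in hypoxia, by log2 fold changes from 2.45 to 5.43, and all fell with 32-134D, by -3.85 to -1.81.

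The genes most like each member in profile were sought among the 11140 other genes with a mean of at least 5 CPM, by Pearson r of log2 CPM over the 9 libraries, as a description only. The libraries of a group share their treatment, so high values are common. HIP1, NFIX and MYLK were nearest to TEAD1 (r from 0.998 to 0.999), and CLCN4, ABAT and PIK3AP1 to YAP1 (r of 0.998 each). For CCN1 they were RPL29, THAP4 and NOP53 (0.995 to 0.998), and for CCN2 they were GPC5, GLUD1 and GPC3 (0.991 to 0.994). TTC39C, ZCCHC9 and ERICH5 were nearest to ANKRD1 (0.993 to 0.995) and PLEKHA2, LGI4 and STAU1 to AMOTL2 (0.993 to 0.995). LATS2 had SLC35A2, PDK3 and LPIN1 (0.975 to 0.979), and AXL had DOC2B, SRP72 and IARS1 (0.982 to 0.987). The lowest values were those of WWTR1, with PDE9A, AHCY and CD74 (0.964 to 0.966), and TEAD4, with HSPA4L, SLC44A2 and RCL1 (0.935 to 0.939). No gene was nearest to more than 1 member.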

How the data were processed

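Hep3B RNA-seq was measured in 9 cultures. The authors deposited raw counts per Ensembl gene, without normalization, after checking reads with FastQC, trimming with Bbduk, mapping with STAR to the Ensembl 100 reference on GRCh38 and counting with featureCounts. Tool versions and the strand setting are not given in the sources used here. The 9 columns were matched to samples by the names in the labels. Replicate pairs differed by more than counting error (chi-square per degree of freedom 1.62 to 36.4), so none held the counts of another within sampling noise, and all 9 were kept.

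Genes with a summed count of at least 10 were tested with edgeR 4.0.16 in R 4.3.3 (TMM, quasi-likelihood, 1 fit of all libraries, common biological coefficient of variation 10.5%), where the study's methods name DESeq2. FDR was adjusted over all tested genes, and intervals used the t quantile of the fit. Levels per kilobase used merged GENCODE 29 exons, which hold 58496 of the 60683 genes, and start windows came from RefSeq on GRCh38.p14. Merged exons take in all annotated transcripts of a gene, so orders and ratios between genes depend on that length. Precision is limited by 3 replicates, and for AXL by few counts. Floors cover counting error only.

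The genes and lists were chosen with earlier results of these data known. All 10 members are named, up to 4 called genes of each list by size of log2 fold change with a mean of at least 1 CPM in the higher group, and the 3 nearest profiles of each member. The alternatives were other scalings, DESeq2 1.42.0, other filters and fold thresholds, fits of 2 groups, a replicate block, Spearman rho and leaving out each library. The procedure was tested on simulated counts.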

Additional observations from a re-analysis of the deposited data

How the results depend on the processing

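YAP1, TEAD1, CCN1, ANKRD1 and AMOTL2 kept their directions in hypoxia and with 32-134D under every alternative run, as did CCN2 in hypoxia. Total library size moved the median of all genes by -0.21 in hypoxia and 0.18 with 32-134D, and the share of calls that were higher from 49.0% to 34.5% and from 54.2% to 72.0%. Members called higher in hypoxia numbered 5 with no filter on low counts, with no fold threshold or with 2 groups in the fit, and 3 to 5 when single libraries were left out (5 without replicate 3 of 32-134D). With a fold threshold of 2, members called with 32-134D were 1 higher and 2 lower. The share of all tested genes called was not computed under these other settings. Counts of members under them show only how the calls moved. Against vehicle at 20% O2, 1 member was higher with 32-134D under DESeq2, no filter or no fold threshold, 1 was lower with no filter, and both counts ranged from 0 to 1 when single libraries were left out, with 1 higher without replicate 1 of vehicle at 20% O2 or without replicate 1 or 2 of 32-134D, and 1 lower without replicate 1 of 32-134D.

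LATS2 with 32-134D fell below the fold threshold with DESeq2 (-0.56), its size factors (-0.56), total library size (-0.42), at least 10 counts in every library (-0.52), 2 groups in the fit (-0.55), or without replicate 1 of vehicle at 20% O2, replicate 2 or 3 of vehicle at 1% O2 or replicate 3 of 32-134D. CCN2 with 32-134D was called with total library size (0.64). AXL with 32-134D was called higher with no filter (0.65) or without replicate 1 of 32-134D (1.11), and reversed to -0.57 without replicate 3, in a range of -0.57 to 1.11 over single libraries left out. Against vehicle at 20% O2, AMOTL2 changed sign with no filter (0.003) and ranged from -0.10 to 0.13, and LATS2 from -0.15 to 0.10, over single libraries left out. AXL could not be fitted with at least 10 counts in every library. The causes were not tested.

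For the other lists, no fold threshold gave 4 higher and 5 lower in hypoxia, 5 and 2 with 32-134D and 3 and 1 against vehicle at 20% O2 for the Hippo kinase module, 1 higher and 2 lower in hypoxia and 3 higher with 32-134D for the TEAD partners, 5 higher in hypoxia and 2 against vehicle at 20% O2 for the ubiquitin ligases, and 11 higher with 32-134D and 1 lower against vehicle at 20% O2 for the other targets. A fold threshold of 2 left 1, 1 and 0 kinase module genes higher in the 3 comparisons, 0 TEAD partners and 0 ligases lower in hypoxia, 0 ligases higher and 1 lower with 32-134D and 0 relatives higher with 32-134D. Total library size gave 4 kinase module genes lower in hypoxia and 0 higher against vehicle at 20% O2, 2 TEAD partners lower in hypoxia and 2 higher with 32-134D, and 1 relative higher in hypoxia and 2 with 32-134D. DESeq2 and its size factors each gave 2 TEAD partners higher with 32-134D and 1 relative higher in hypoxia. At least 10 counts in every library gave 0 kinase module genes higher against vehicle at 20% O2, 2 TEAD partners higher with 32-134D, 1 other target higher in hypoxia and 1 lower with 32-134D, and of the relatives 0 higher and 1 lower in hypoxia, 0 lower with 32-134D and 0 higher against vehicle at 20% O2. With 2 groups in the fit, 2 TEAD partners were higher with 32-134D and 1 other target was higher against vehicle at 20% O2. When single libraries were left out, kinase module genes higher against vehicle at 20% O2 ranged from 0 to 1, TEAD partners lower in hypoxia from 0 to 1 and higher with 32-134D from 0 to 2, other targets higher against vehicle at 20% O2 from 1 to 3, and relatives higher in hypoxia from 1 to 2. The share of all tested genes called under each of these settings was not computed, so the counts are not read as results about the lists.

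Deviations of same-numbered replicates correlated at -0.22 to 0.09, and 6 of 18 comparisons of a library with another group were highest for its own number, so the numbers were not taken to pair samples. With the replicate block, 1 member was called higher against vehicle at 20% O2, AXL at 1.97, and AXL was also called in hypoxia at 1.60. With Spearman rho, 11 of the 30 nearest genes were shared.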

Other observations

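Among relatives and ligands of the target genes, 8 of 11 were tested, and CCN4, CCN5 and CCN6 had too few counts. ANKRD37, an ankyrin repeat gene known as a HIF target, had log2 fold changes of 4.77 (SE 0.21, FDR 1.78e-10) in hypoxia and -2.55 (SE 0.16, FDR 1.61e-08) with 32-134D in edgeR. PROS1, a ligand of the TAM receptors, had -1.05 (SE 0.07, FDR 1.95e-08) and 0.97 (SE 0.07, FDR 1.02e-07), and MERTK, a TAM receptor like AXL, had 0.59 (SE 0.14, FDR 0.0027) in hypoxia. The fold of MERTK was 1.508, just above the threshold of 1.5. In all, 3 relatives were called higher and 2 lower in hypoxia, and 1 higher and 1 lower with 32-134D. CCN3, named after its values were seen, was among the 3 higher, at an edgeR FDR of 0.0461 with a summed count of 32. Fewer relatives were called higher in hypoxia under DESeq2 or when single libraries were left out. The shares of all tested genes were 19.5% higher and 20.3% lower in hypoxia, and 16.2% and 13.7% with 32-134D.

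In replicate 3 of 32-134D, TGFB2 and FJX1 were at 2.66 and 2.68 times the mean of replicates 1 and 2, and AMOT, an angiomotin like AMOTL2, was at 0.48 of it. These genes were picked after their values were seen.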
